A study of Homo sapiens with 2 samples.

Results

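The genes described here are 28 whose mRNAs earlier work has linked to miR-130b or to a microRNA sharing its seed, taken as a fixed list of symbols from general knowledge that was not checked against the literature. Of these, 27 had a probe set of their own among the 18417 genes named on the array, and HOXA5 was not analysed here. They were measured in RNA recovered by immunoprecipitation of Argonaute2 (Ago2) from cultures of A549, an established line from a human lung adenocarcinoma. One culture overexpressed miR-130b and the other had been transfected with an empty vector, with 1 array per group. The sources used here give neither the vector nor the dose or time of transfection.

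A microRNA is carried by Ago2 and guides it to mRNAs, mostly through pairing of its seed, bases 2 to 8 from its 5′ end, with sites in their 3′ untranslated regions. Pairing usually lowers the stability and translation of the mRNA, whereas the mRNAs held at a given moment are recovered with Ago2. The miR-130 family includes miR-130a, miR-130b, miR-301a, miR-301b and miR-454, and its reported targets include growth-restraining genes and regulators of development and inflammation. The comparison asked which of these mRNAs were enriched with Ago2 in cells overexpressing miR-130b.

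Because the listed genes have in common only a reported pairing with this seed, 6 mature sequences that carry it are shown first, with bases 2 to 8 in capitals. They are from RefSeq on GRCh38.p14. The first is the overexpressed microRNA, which lies at chr22:21653354-21653375 on the plus strand, and miR-301b-3p lies upstream of it at chr22:21653025-21653047.
hsa-miR-130b-3p: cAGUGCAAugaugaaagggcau
hsa-miR-301b-3p: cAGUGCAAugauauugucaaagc
hsa-miR-301a-3p: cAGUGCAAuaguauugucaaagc
hsa-miR-454-3p: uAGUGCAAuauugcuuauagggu
hsa-miR-3666: cAGUGCAAguguagaugccga
hsa-miR-4295: cAGUGCAAuguuuuccuu
The 6 sequences are identical over the seed and differ after it. A target site for the whole seed reads UUGCACU, which is the reverse complement of the capitals. The following pair belongs to other families and is shown because its seeds overlap that of miR-130b only in part.
hsa-miR-148a-3p: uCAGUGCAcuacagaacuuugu
hsa-miR-17-5p: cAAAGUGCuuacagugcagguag
The longest run shared with the family seed was 6 bases for miR-148a-3p and 5 bases for miR-17-5p. A gene reported for a miR-130 seed can therefore also carry sites for either of these, and sites were not searched for here because transcript sequences were not used.

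The 33297 probe sets had a median log2 level of 7.77 on each array, and 9209 genes at or above a mean level of 8.64 were kept. The probe set of MIR130B stood at 12.64 with miR-130b and at 6.66 with the empty vector. Of the other loci of the family, MIR130A stood at 5.40 with miR-130b and at 5.55 with the empty vector. MIR301A stood at 3.51 and 3.73 in the same order, while MIR301B and MIR454 were not analysed here. Both measured loci lay below the 95th percentile of olfactory receptor genes (7.17 with miR-130b, 7.08 with the empty vector). Whether the probe sets of family loci read the mature microRNAs was not tested. SKA2, whose gene hosts MIR301A and MIR454, differed by 0.45. Of 12 lung epithelial markers 7 passed the filter, with a median difference of -0.029. The keratin KRT8 stood at 13.48 with miR-130b and at 13.38 with the empty vector, E-cadherin (CDH1) at 11.49 and 12.61, and the alveolar transporter ABCA3 at 8.89 and 9.93 in the same order. The alveolar markers SFTPB, SFTPC, SFTPD and NKX2-1 and the epithelial adhesion gene EPCAM were below the filter. Of the markers of other cell types, 2 of 10 for fibroblasts, 2 of 9 for leukocytes and 1 of 8 for endothelium passed the filter. In a bulk sample, fewer cells that make an RNA and less RNA per cell cannot be told apart. Likewise, since input RNA was not analysed here, more of an mRNA in the cell and more of it on Ago2 cannot be told apart.

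With 1 array per group there was no replicate error and no test, so each value below describes these 2 arrays. Differences are log2 levels with miR-130b minus log2 levels with the empty vector. The one measure of error in the data is the disagreement between different probe sets of 1 gene. The pooled SD of their differences was 0.16 (356 genes), so 2 SDs come to 0.33, and this leaves out variation between cultures and precipitations.

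The 20 listed genes that passed the filter had differences close to those of all kept genes, in counts and in median. Of the 27 measured genes, 20 passed the filter, and 12 of these were higher and 8 lower with miR-130b, where 51.5% of all kept genes were higher and 48.4% lower. Their median difference was 0.023, beside 0.010 over all kept genes, and it was 0.12 for the 10 listed genes that a stricter filter (75th percentile of level) left. The median size of their differences regardless of sign was 0.19, as it was over all kept genes. None was 2-fold higher or 2-fold lower, where 1.32% of the kept genes were 2-fold higher and 1.6% 2-fold lower. At 1.5-fold, 1 was higher (RPS6KA5) and 1 was lower (RUNX3), where 5.04% of the kept genes were higher and 5.87% lower. Differences within 2 SDs between probe sets were found in 15 of the 20 (75%), beside 70.4% of the kept genes. These shares lie near the background, so they are no result about the listed genes. The list holds only some of the reported targets, and its members were chosen with values of these arrays known. Together with 16 kept targets outside the list, 24 of 36 were higher (66.7%, beside 51.5% of all kept genes), with a median of 0.11. Those 16, of which 12 were higher, were also drawn with values of these arrays known. The share of the joint group is therefore no result about reported targets, and it was not tested.

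**Figure D1:**
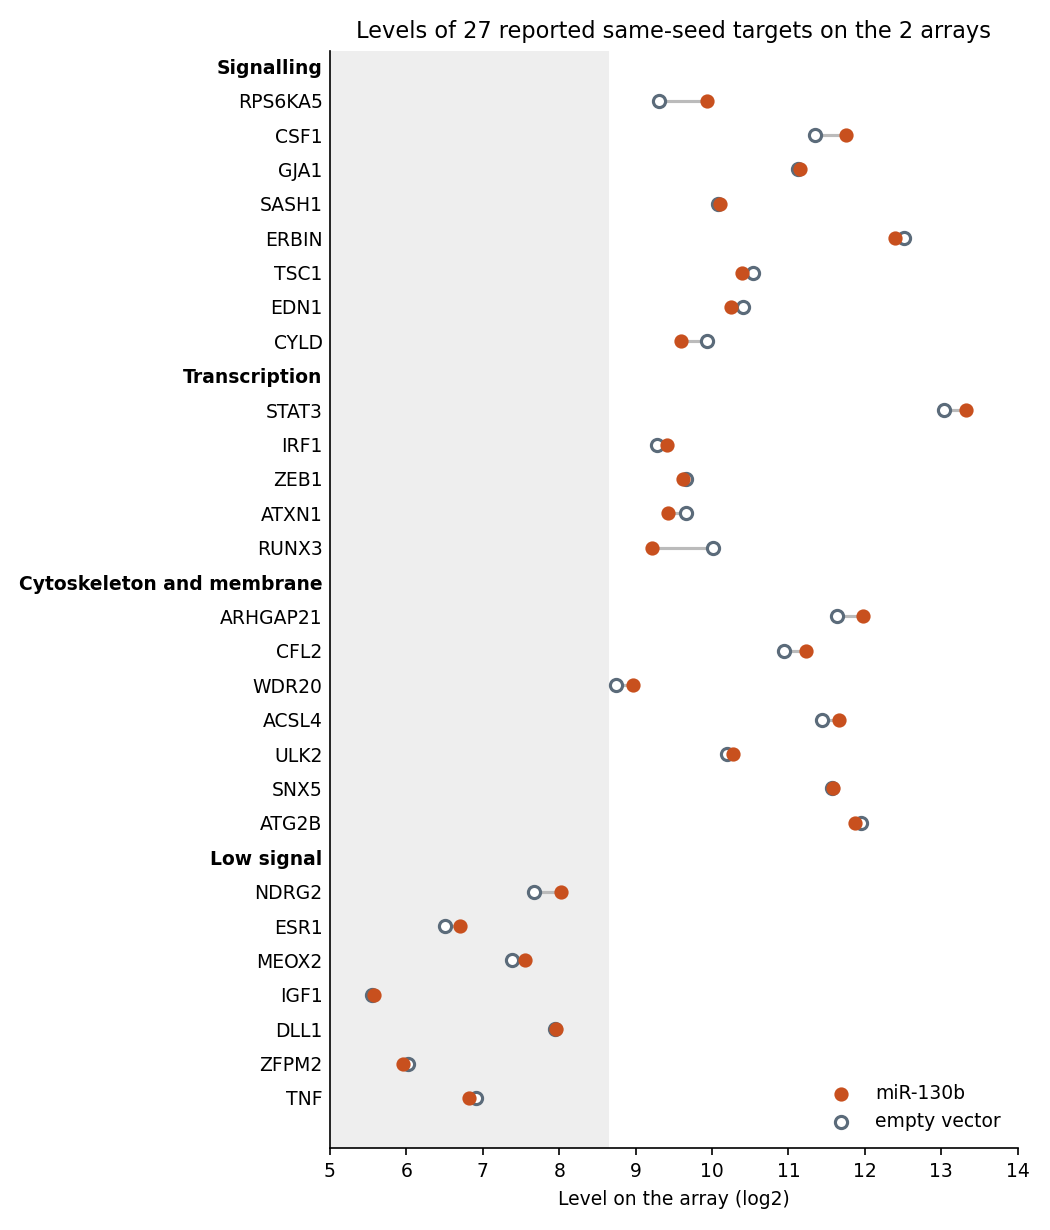
Level on the array (log2) of each of the 27 measured genes, with a filled point for the miR-130b array and an open point for the empty-vector array, grouped by role; the shaded area lies below the filter of 8.64. Most pairs of points nearly touch, and the widest gaps among kept genes are those of RUNX3 (9.22 with miR-130b, 10.01 with the empty vector) and RPS6KA5 (9.93 and 9.31).

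Among signalling genes, 8 of 12 passed the filter, with 4 higher and 4 lower, where 51.5% of all kept genes were higher. RPS6KA5 encodes MSK1, a nuclear kinase that acts below MAP kinases and phosphorylates CREB and histone H3. It stood at 9.93 with miR-130b and at 9.31 with the empty vector, a difference of 0.62 (1.54-fold higher) at the 95.5th percentile of kept genes. CSF1, the growth factor of macrophages, stood at 11.75 with miR-130b and at 11.35 with the empty vector, a difference of 0.40 (1.32-fold). Both were separated by more than 2 SDs between probe sets, with the miR-130b array high.

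CYLD, a deubiquitinase that restrains NF-κB signalling, was at the other end. It stood at 9.59 with miR-130b and at 9.93 with the empty vector, a difference of -0.34 that lay just past 2 SDs, and inside them after quantile normalization (-0.31). EDN1, the precursor of the vasoconstrictor endothelin-1, stood at 10.25 with miR-130b and at 10.41 with the empty vector. TSC1, which with TSC2 restrains mTORC1, stood at 10.39 with miR-130b and at 10.53 with the empty vector. The empty-vector array was slightly higher for both, by less than 1 SD between probe sets.

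ERBIN, a scaffold that binds ERBB2, stood at 12.39 with miR-130b and at 12.51 with the empty vector. GJA1, the gap junction protein connexin 43, stood at 11.14 with miR-130b and at 11.12 with the empty vector. SASH1, a scaffold described as a candidate tumour suppressor, stood at 10.10 with miR-130b and at 10.08 with the empty vector. The last 2 genes lay close to the median of all kept genes, at the 52.4th and 51.9th percentiles. The median of the 8 signalling genes was -0.049, whereas their mean was 0.040, so the group had no settled direction.

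Among transcription regulators, 5 of the 8 measured passed the filter, with 2 higher and 3 lower, where 51.5% of all kept genes were higher. RUNX3, a Runt-family factor that is often silenced in epithelial tumours, had the largest difference of any listed gene. It stood at 9.22 with miR-130b and at 10.01 with the empty vector, a difference of -0.79 (1.73-fold lower) at the 3.07th percentile of kept genes. The miR-130b array was low by 4.84 SDs between probe sets. The difference was -0.75 after quantile normalization and -0.78 after cyclic loess. RUNX3 had 1 probe set, so the choice of probe set could not change it.

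STAT3, the factor that carries IL-6-type cytokine signals, stood at 13.32 with miR-130b and at 13.04 with the empty vector, a difference of 0.28. IRF1, an interferon-responsive factor with growth-restraining activity, stood at 9.41 with miR-130b and at 9.27 with the empty vector. ATXN1, a co-repressor that works with CIC, stood at 9.42 with miR-130b and at 9.65 with the empty vector. These 3 differences lay within 2 SDs between probe sets, with the miR-130b array high for STAT3 and IRF1 and low for ATXN1.

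ZEB1, the repressor of E-cadherin that drives epithelial-mesenchymal transition, stood at 9.62 with miR-130b and at 9.66 with the empty vector. Its difference of -0.031 was a fraction of the SD between probe sets, and it was -0.00024 after quantile normalization. The median of the 5 regulators was -0.031 and their mean -0.13.

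Among genes of the cytoskeleton, membranes and autophagy, all 7 passed the filter, and 6 were higher and 1 was lower with miR-130b, where 51.5% of all kept genes were higher. Their median was 0.22, and no test of so few genes on 1 array per group was made. Each of the 7 kept its sign under centring, quantile normalization and cyclic loess. The brightest probe set could change only ATG2B, which also kept its sign. Of these differences, 6 lay within 2 SDs between probe sets, and none reached 1.5-fold.

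ARHGAP21, a GTPase-activating protein for CDC42, stood at 11.97 with miR-130b and at 11.63 with the empty vector, a difference of 0.34. CFL2, the muscle-type cofilin that severs actin filaments, stood at 11.23 with miR-130b and at 10.94 with the empty vector. WDR20, which activates the deubiquitinases USP12 and USP46, stood at 8.96 with miR-130b and at 8.74 with the empty vector, just above the filter. The miR-130b array was the higher one for all of them, and ARHGAP21 was the one past 2 SDs between probe sets.

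ACSL4, which couples arachidonic acid to coenzyme A, stood at 11.66 with miR-130b and at 11.44 with the empty vector. ULK2, a kinase that starts autophagy, stood at 10.28 with miR-130b and at 10.19 with the empty vector. SNX5, a sorting nexin of endosomes, stood at 11.59 with miR-130b and at 11.57 with the empty vector. The order of the arrays was the same in these 3 genes, but the gap narrowed to 0.015 for SNX5. ATG2B, a lipid-transfer protein of the forming autophagosome, was the exception, at 11.88 with miR-130b and 11.95 with the empty vector. It had 2 probe sets, with differences of -0.071 and -0.074.

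**Figure D2:**
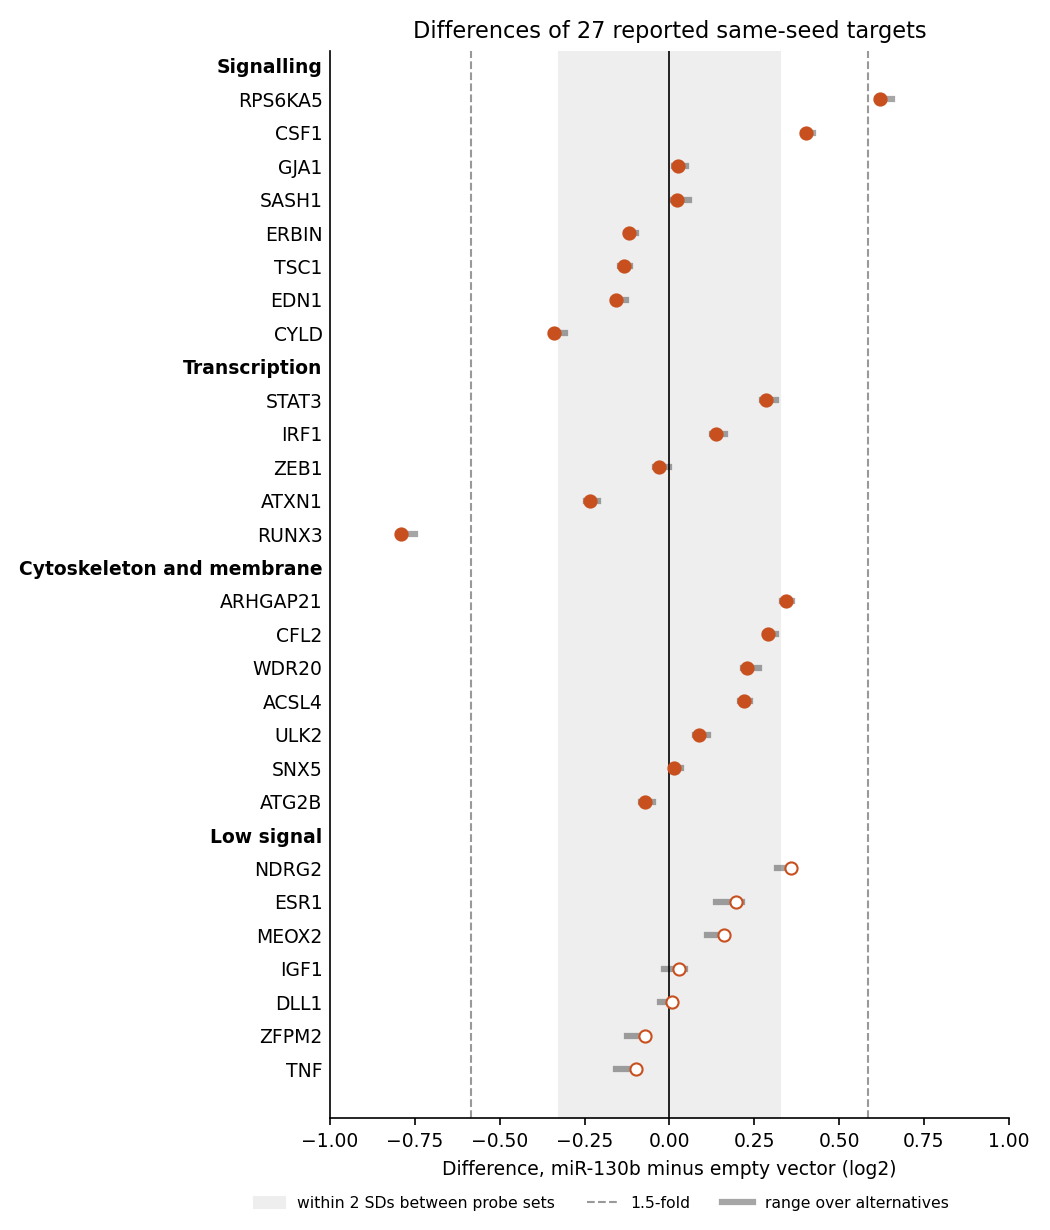
Difference (miR-130b minus empty vector, log2) of each of the 27 measured genes, with filled points for kept genes and open points for low-signal genes; thick lines span the values under centring, quantile normalization, cyclic loess and the brightest probe set, the shaded area marks 2 SDs between probe sets and dashed lines mark 1.5-fold. RPS6KA5 at 0.62 and RUNX3 at -0.79 are the points beyond the dashed lines.

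The remaining 7 genes had low signal. The 95th percentile of 341 olfactory receptor genes, none of which passed the filter, was 7.17 on the miR-130b array and 7.08 on the empty-vector array. IGF1, insulin-like growth factor 1, was below it on both arrays, at 5.58 with miR-130b and at 5.55 with the empty vector. TNF, the inflammatory cytokine, was below it at 6.81 with miR-130b and at 6.91 with the empty vector, values that its 3 probe sets shared. ESR1, oestrogen receptor alpha, was below it at 6.70 with miR-130b and at 6.51 with the empty vector, as was ZFPM2, a cofactor of GATA factors, at 5.95 and 6.02 in the same order. For these 4 genes the levels lay within those of the olfactory receptor genes on both arrays, so their differences carry little information.

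DLL1, MEOX2 and NDRG2 lay between that level and the filter. DLL1, a ligand of Notch receptors, stood at 7.95 on both arrays. MEOX2, a homeobox factor that restrains vascular cell growth, stood at 7.55 with miR-130b and at 7.39 with the empty vector. NDRG2, a growth-restraining gene, stood at 8.03 with miR-130b and at 7.67 with the empty vector, a difference of 0.36. A second probe set, annotated to both PAPLN and NDRG2 and left out of the gene value, differed by -0.050. Which of these genes its signal comes from cannot be told. Over all genes below the filter 65.6% were higher with miR-130b, so a small positive difference was the common case at low signal. The signs of DLL1 and IGF1 depended on the normalization.

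Further genes reported for the same seed lay outside the list. Of 21 such genes, drawn from general knowledge with values of these arrays known, 18 were measured and 16 kept. Of these 16, 12 were higher and 4 lower, with a median of 0.26. Over all kept genes, 51.5% were higher and the median was 0.010. At 1.5-fold, 4 of the 16 were higher and 2 lower, where 5.04% of all kept genes were higher and 5.87% lower. The largest upward differences among the 16 were those of MMP2 (3.34), BCL2L11 (0.97) and TP53INP1 (0.92). The largest downward ones were those of KLF4 (-0.79), PPARG (-0.74) and RAB5A (-0.53). BCL2L11 was below the filter level on the empty-vector array (8.46), and KLF4 on the miR-130b array (8.63). Their means passed the filter only through the array on which each was high. PPARGC1A, a coactivator of mitochondrial and nuclear receptor programmes, was below the filter because its level on the miR-130b array was low. It stood at 6.33 with miR-130b and at 10.07 with the empty vector, a difference of -3.74 that was the lowest of all 18417 genes. E2F2, a cell-cycle factor also below the filter, stood at 8.42 with miR-130b and at 7.40 with the empty vector (1.02). The difference between both groups of reported targets was not tested, since membership followed earlier knowledge of these values.

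**Figure D3:**
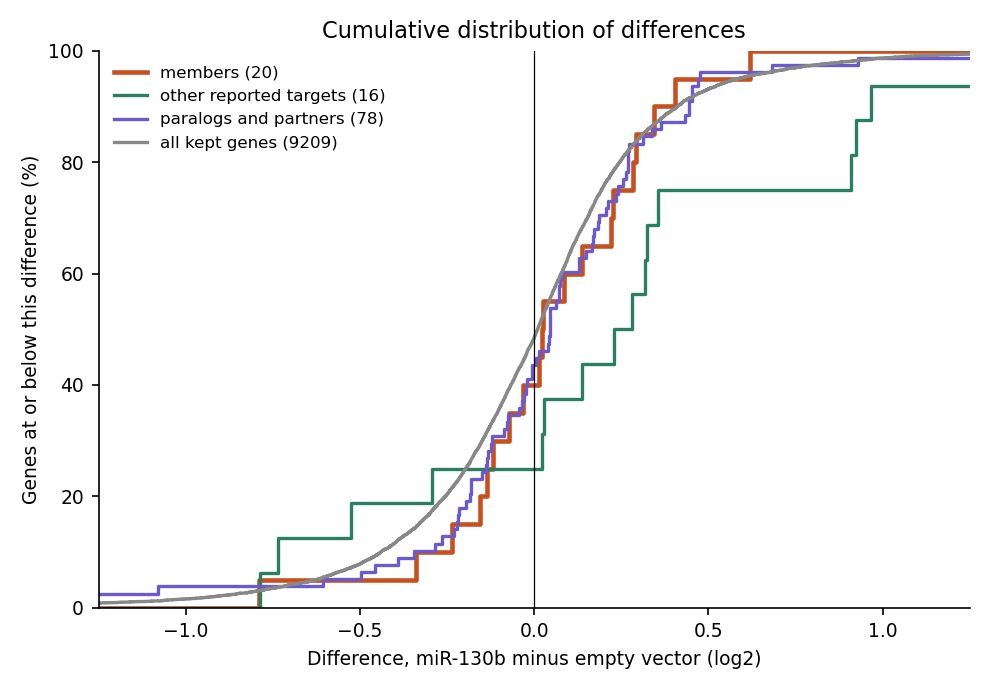
Cumulative share of genes (%) against the difference (miR-130b minus empty vector, log2) for the 20 kept members of the list, 16 other reported targets, 78 paralogs and partners of the members and all 9209 kept genes; the axis omits genes beyond its ends. The curve of the listed genes runs close to that of all kept genes (medians 0.023 and 0.010), while that of the other reported targets lies to the right over most of its length (median 0.26).

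Direct partners and paralogs of the listed genes were taken as a further frame, with 101 of 117 measured and 78 kept. Of these, 44 were higher and 34 lower, where 51.5% of all kept genes were higher. Their median was 0.044, beside 0.010 over all kept genes, and it was -0.019 with a stricter filter (75th percentile of level). By role, the medians were 0.042 for partners of the signalling genes (28 kept), 0.081 for those of the transcription regulators (21 kept) and 0.015 for those of the cytoskeleton, membrane and autophagy genes (29 kept). The listed genes of the last group had a median of 0.22, and its difference from the median of their partners was not tested.

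RUNX3 differed in direction from its paralogs. RUNX1 differed by 0.062 and RUNX2, the bone-forming member of the family, stood at 10.60 with miR-130b and at 9.67 with the empty vector (0.93), while their shared binding partner CBFB differed by 0.34. The difference of RUNX3 minus that of RUNX2 was -1.72, and minus that of RUNX1 it was -0.85. STAT3 also stood apart from relatives, since STAT5B differed by -0.22 and STAT6 by -0.18. Around STAT3, the kinase JAK2 differed by -0.50 and the receptor chain IL6ST by -0.20, whereas the feedback inhibitor SOCS3 differed by 0.48. For IRF1, the paralogs IRF2 (0.081), IRF3 (-0.030) and IRF9 (-0.023) were all near 0, and the signs of IRF3 and IRF9 depended on the normalization.

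Partners of the other regulators differed in both directions. Beside ZEB1, the transition factors SNAI2 and TWIST1 differed by 0.68 and 0.44, and the co-repressor CTBP2 by -0.35. Below the filter, SNAI1 stood at 9.01 with miR-130b and at 7.82 with the empty vector (1.19), and ZEB2 differed by -0.20. CIC, the partner of ATXN1, differed by 0.31, opposite in sign to ATXN1 itself. The GATA factors GATA4 and GATA6, which bind ZFPM2, differed by 0.36 and 0.45.

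Among signalling partners, HES1, a Notch target gene, stood at 11.89 with miR-130b and at 10.22 with the empty vector (1.67), while the Notch ligand JAG1 differed by -0.39. IGFBP1, a binding protein of insulin-like growth factors, stood at 10.75 with miR-130b and at 12.21 with the empty vector (-1.45). NDRG1, the stress-responsive paralog of NDRG2, stood at 10.00 with miR-130b and at 11.08 with the empty vector (-1.08). The miR-130b array was thus high for HES1 and low for IGFBP1 and NDRG1, each by more than 2-fold, and the listed genes beside them (DLL1, IGF1, NDRG2) were all of low signal.

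RPS6KA4, which encodes the related kinase MSK2, differed by 0.13, beside 0.62 for RPS6KA5. TSC2 differed by -0.28 and RHEB, the GTPase it restrains, by -0.12, both with the sign of TSC1. In the same list of partners, MTOR differed by -0.078 and RPTOR by 0.18. These differences and that of TSC1 (-0.13) all lay within 2 SDs between probe sets. GJC1, another connexin, differed by 0.43, beside 0.025 for GJA1, and TNFRSF1A, the main receptor for TNF, differed by 0.45. The relatives of ERBIN split, with LRRC1 at -0.26 and SCRIB at 0.25.

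The autophagy genes beside ULK2 and ATG2B held the largest difference among the partners of the third group. WIPI1, which binds the phosphoinositide of forming autophagosomes, stood at 10.27 with miR-130b and at 12.04 with the empty vector (-1.77). ATG13, a subunit of the ULK complex, differed by -0.61 and WDR45, a relative of WIPI1, by -0.46. ULK1 differed by 0.044, beside 0.086 for ULK2, and ATG2A by 0.19, beside -0.073 for ATG2B. Both listed autophagy genes differed by less than 1 SD between probe sets, whereas WIPI1 was more than 2-fold lower with miR-130b.

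CFL2 and WDR20 had the same sign as most of their partners. CFL1, the non-muscle cofilin, differed by 0.17 and its phosphatase SSH2 by 0.47, while DSTN, the third member of the cofilin family, differed by -0.035. The deubiquitinases USP46 and USP12 and their cofactor WDR48 differed by 0.45, 0.047 and 0.15, and WDR20 by 0.23. All 4 were higher with miR-130b, where 51.5% of all kept genes were higher. All but USP46 lay within 2 SDs between probe sets. ARHGAP23 differed by -0.0075, a sign that depended on the normalization, beside 0.34 for ARHGAP21, and ACSL1 by 0.13 beside 0.22 for ACSL4. The sorting nexins SNX1 (0.21) and SNX2 (-0.22) lay on either side of SNX5.

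**Figure D4:**
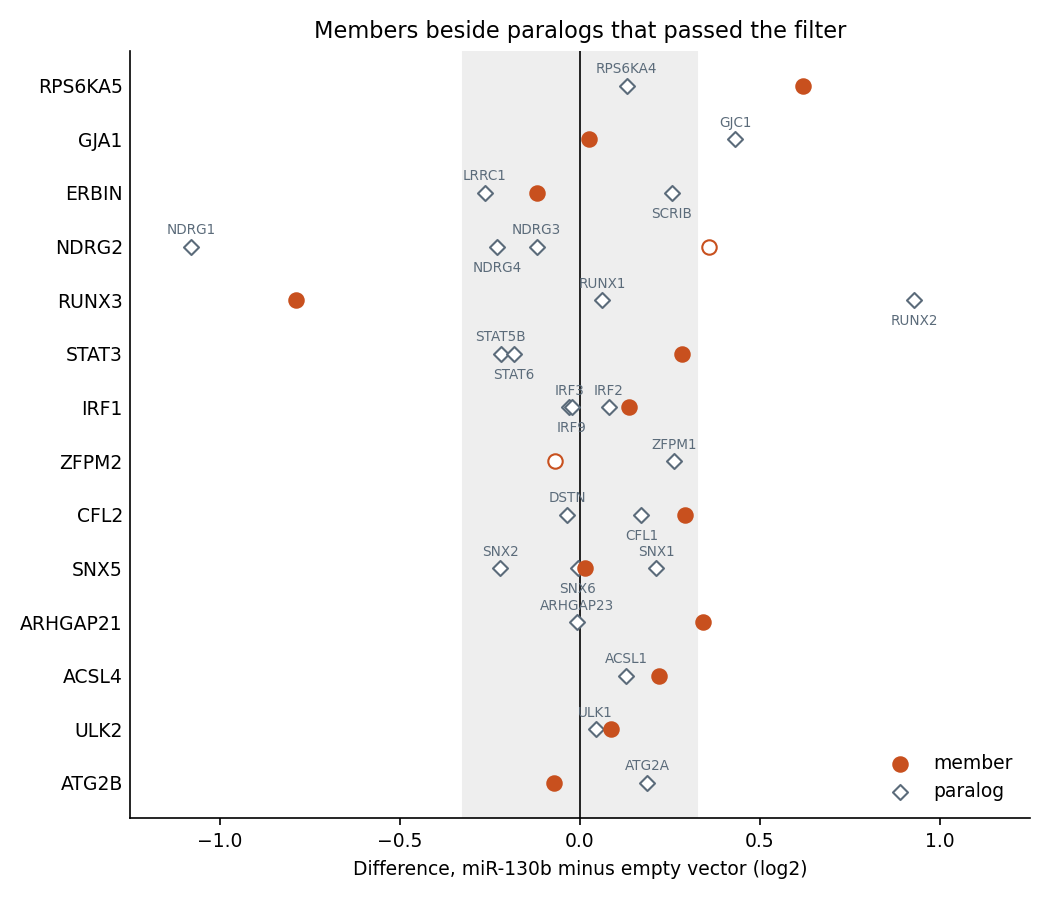
Difference (miR-130b minus empty vector, log2) of listed genes (circles, open where of low signal) beside those of paralogs that passed the filter (diamonds); the shaded area marks 2 SDs between probe sets of 1 gene. RUNX3 at -0.79 and RUNX2 at 0.93 lie farthest apart, and ULK2 and SNX5 lie closest to a paralog.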

How the data were processed

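The deposited values are log2 expression levels per probe set from an Affymetrix whole-transcript array, with 1 biotin-labelled sample per array per the labels. The log2 unit was taken from the values (1.95 to 14.17). The sources used here do not state the software, background correction or normalization. The arrays had nearly equal distributions, so differences are relative to the other probe sets, and array background can shrink differences of low signals. The labels' extraction protocol describes excised tissue, so how this RNA was purified is uncertain.

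From these values the following was computed. Of 33297 probe sets, 19460 carried 1 gene symbol in the platform annotation, 1754 several and 12083 had no name here. Current symbols were looked up by Entrez identifier (19429 matched RefSeq, GRCh38.p14). Probe sets of a gene were averaged (18417 genes), and genes with a mean at or above the median were kept (9209). No test was run, with 1 array per group. Only the subtraction of levels was checked on simulated data, which did not cover the averaging of probe sets, the filter or the lists. Counts use thresholds of 2-fold and 1.5-fold.

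The members, lists and thresholds were chosen with earlier results of these data known. Genes named are all members, miR-130 family loci with a probe set, AGO2, the 3 largest kept differences each way in the lists of partners and other targets, and kept markers. The other partners and paralogs, PPARGC1A, E2F2, AGO3, DICER1, TNRC6B, DGCR8, TIE1, CD3E, the SFTP genes, NKX2-1 and EPCAM were named after their values were seen. The alternatives tried were quantile normalization, cyclic loess, centring, the brightest probe set, the 75th percentile as filter or none, 1.5-fold and list means. Python 3.11.15, pandas 2.3.3, R 4.3.3 and limma 3.58.1 were used.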

Additional observations from a re-analysis of the deposited data

How the results depend on the processing

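No gene had a replicate, so no leave-one-out value exists, and no paired analysis was possible because each group held 1 array. For the 27 measured members, all 108 values under centring, quantile normalization, cyclic loess and the brightest probe set stayed within 1 SD between probe sets of the reported difference, with a largest shift of 0.060 (TNF, cyclic loess). Of the members, 2 changed sign under at least 1 of these settings (DLL1 and IGF1). Centring moved every gene by the same 0.010, and the brightest probe set could change only ESR1 and ATG2B. Staying within 1 SD was therefore fixed beforehand under centring, and for the other members under the brightest probe set. The median of the kept members was 0.12 under a filter at the 75th percentile of level, which left 10 of them, and between 0.013 and 0.053 under the other settings. The signalling median was 0.015 with no filter and the mean 0.040, against -0.049. The median of the transcription regulators was 0.053 with no filter and 0.28 under the stricter filter, which left STAT3, and their mean was -0.13, against -0.031. The median of the cytoskeleton, membrane and autophagy genes ran from 0.21 to 0.23, with a mean of 0.16. The median of other reported targets ran from 0.25 to 0.28. The median of partners and paralogs was 0.064 after quantile normalization and -0.019 with the stricter filter. Without a filter 196 genes were 2-fold higher and 252 lower, and under the stricter filter 40 and 60, since these settings test more or fewer genes. At 1.5-fold the counts were 464 and 541. The shift of all kept genes was at most 0.034 in any normalization. Signal near background limits the 7 low-signal members, and the number of arrays limits the precision of all values.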

Other observations

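The mRNAs of the silencing machinery itself were on the array too. Of 11 such genes all were kept, with 8 higher and 3 lower with miR-130b and a median of 0.18. Over all kept genes, 51.5% were higher and the median was 0.010. Differences within 2 SDs between probe sets were found in 10 of the 11 (90.9%), beside 70.4% of all kept genes. AGO2, the precipitated protein's own mRNA, stood at 11.66 with miR-130b and at 11.41 with the empty vector. DGCR8, the partner of the nuclear processing enzyme, differed by 0.34 and DICER1, the cytoplasmic processing enzyme and itself a reported same-seed target, by 0.32. TNRC6B, a GW182 scaffold, differed by 0.30 and AGO3 by -0.13. None reached 1.5-fold.

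Markers of cell types other than lung epithelium were mostly below the filter and mostly higher with miR-130b. All 10 fibroblast markers were higher (median difference 0.35), as were all 8 endothelial markers (0.21) and 6 of 9 leukocyte markers (0.043), where 65.6% of all genes below the filter were higher. The kept ones were COL1A1 at 0.32, ACTA2 at 0.0034, CLDN5 at 0.10, CD14 at 0.63 and CD68 at -1.18. The signs of ACTA2, TIE1, CD3E, KRT18 and SFTPD depended on the normalization. Median levels of the fibroblast list were 7.67 with miR-130b and 7.27 with the empty vector. Of the kept lung epithelial markers, KRT19 differed by 0.37, MUC1 by 0.42, KRT8 by 0.10, KRT18 by -0.029, KRT7 by -0.29, ABCA3 by -1.04 and CDH1, which ZEB1 represses, by -1.12. The part of these values in the differences of the listed genes was not tested.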
